A study of Homo sapiens with 10 samples.

Results

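The potassium channel genes of MDAMB231, an established triple-negative breast cancer cell line, were examined for histone marks and open chromatin. A gene was a member if the GENCODE annotation of GRCh37/hg19 types it as protein-coding, if its symbol is KCN followed by letters and a number, and if it lies on chromosomes 1 to 22. This gave 92 channel genes of 19229 protein-coding genes. The study profiled cells grown in DMEM with 5% FBS by ChIP-seq for H3K4me3, H3K27Ac and H3K4me1 and by FAIRE-seq, which recovers nucleosome-depleted DNA from cells fixed with 1% formaldehyde. Of the 10 samples, 2 were input DNA and each of the 4 assays had 2, which the authors combined into 1 list of peaks called against input. A list therefore carries no replicate error, and its read depth is not held in the values used here. The H3K4me3 list had 18019 peaks, the H3K27Ac list 37495, the H3K4me1 list 26771 and the FAIRE list 46547 after repeated ones were counted once.

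Potassium channels let potassium ions leave or enter cells and so set the membrane potential, and in dividing and migrating cells they also affect cell volume and calcium entry. Their genes encode voltage-gated pores, silent modifier subunits and auxiliary subunits, inward rectifiers, K2P leak channels, and pores opened by calcium or sodium, with auxiliary subunits of the large-conductance BK channel. H3K4me3 lies at start sites of genes, H3K4me1 mostly at distal elements, and H3K27Ac at active forms of both. Many channels are used mainly by neurons or muscle, and a start site with H3K4me3 but no acetylation is a known state of such genes in other tissues.

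A peak counted as being at a start site when it shared at least 1 base with the window of 1 kb on each side of any annotated start site of the gene. For the genes described peak by peak, 200 bases that end at the base before the most upstream start site under the strongest H3K4me3 peak were read from GRCh37, in the direction of transcription, with CpG dinucleotides in capitals. KCNN4, KCNIP3 and KCNE1 were the channels with all 4 kinds of peak at their start sites, and their stretches show how different the start sites under their strongest H3K4me3 peaks were in base content. The KCNN4 stretch (chr19:44285129-44285328, minus strand) lies outside every annotated gene and held 4 CpG dinucleotides. The KCNIP3 stretch (chr2:96012276-96012475, plus strand) is intronic in the longer transcripts of KCNIP3 and held 39, with a GC share of 85%. The KCNE1 stretch (chr21:35832237-35832436, minus strand) is intronic in longer KCNE1 transcripts and held 10.
KCNN4: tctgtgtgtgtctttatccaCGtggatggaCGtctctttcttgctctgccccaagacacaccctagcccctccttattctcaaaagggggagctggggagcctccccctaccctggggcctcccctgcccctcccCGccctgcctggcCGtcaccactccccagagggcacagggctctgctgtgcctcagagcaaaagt
KCNIP3: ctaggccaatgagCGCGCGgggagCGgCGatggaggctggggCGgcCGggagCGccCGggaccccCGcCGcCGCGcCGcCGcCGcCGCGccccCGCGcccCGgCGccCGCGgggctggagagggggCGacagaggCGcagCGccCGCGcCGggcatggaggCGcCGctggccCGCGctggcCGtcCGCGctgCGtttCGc
KCNE1: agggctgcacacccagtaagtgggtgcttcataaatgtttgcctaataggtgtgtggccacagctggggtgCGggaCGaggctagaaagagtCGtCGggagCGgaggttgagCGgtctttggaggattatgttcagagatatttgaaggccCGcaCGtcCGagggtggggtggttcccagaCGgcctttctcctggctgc

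KCNN2 and KCND2 were among the channels with the widest H3K4me3 peaks and no H3K27Ac at a start site. Their stretches were read in the same way and show the base content at these start sites alone, not that of the class. The KCNN2 stretch (chr5:113697567-113697766, plus strand) lies inside the gene bounds, shares bases with an exon of another KCNN2 transcript and held 15 CpG dinucleotides. The KCND2 stretch (chr7:119913029-119913228, plus strand) lies outside every annotated gene and held 13. None of the 5 stretches has a base in an annotated UTR.
KCNN2: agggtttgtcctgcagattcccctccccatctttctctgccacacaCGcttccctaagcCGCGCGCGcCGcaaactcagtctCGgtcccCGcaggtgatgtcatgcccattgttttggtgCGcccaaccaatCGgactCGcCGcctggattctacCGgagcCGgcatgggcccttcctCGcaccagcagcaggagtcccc
KCND2: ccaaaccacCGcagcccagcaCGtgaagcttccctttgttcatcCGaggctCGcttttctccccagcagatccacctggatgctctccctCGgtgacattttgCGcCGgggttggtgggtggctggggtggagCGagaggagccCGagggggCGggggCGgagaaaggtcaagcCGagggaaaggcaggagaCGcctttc

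Fewer channel genes than coding genes carried each kind of peak. H3K4me3 was at a start site of 39 of the 92 channel genes (42.4%), against 68% of all protein-coding genes. H3K27Ac was at a start site of 19 channel genes (20.7%), against 64.2%. H3K4me1 was at a start site of 11 (12%), against 20.6%, and FAIRE also of 11 (12%), against 39.6%. Under some alternatives these counts fell to between 1 and 7 for H3K4me1 and to 3 or 5 for FAIRE. The shares of all coding genes fell too, to between 8.87% and 12.2% for H3K4me1 and to 30.7% or 25% for FAIRE. With the centre of the peak inside the window, H3K4me1 was at 7 of the 92 channels, against 8.87%, which leaves little difference. All 4 kinds were at start sites of 3 channel genes (3.26%), against 13.4% of all coding genes. With the 5 prime end of each gene alone, the H3K27Ac count fell to 12, against 58.2% of coding genes, and the count with all 4 kinds to 0, against 6.22%. No list had a peak at a start site of 51 channel genes (55.4%), against 28.5%. With single lists and members chosen with results known, these shares are descriptions and were not tested.

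**Figure D1:**
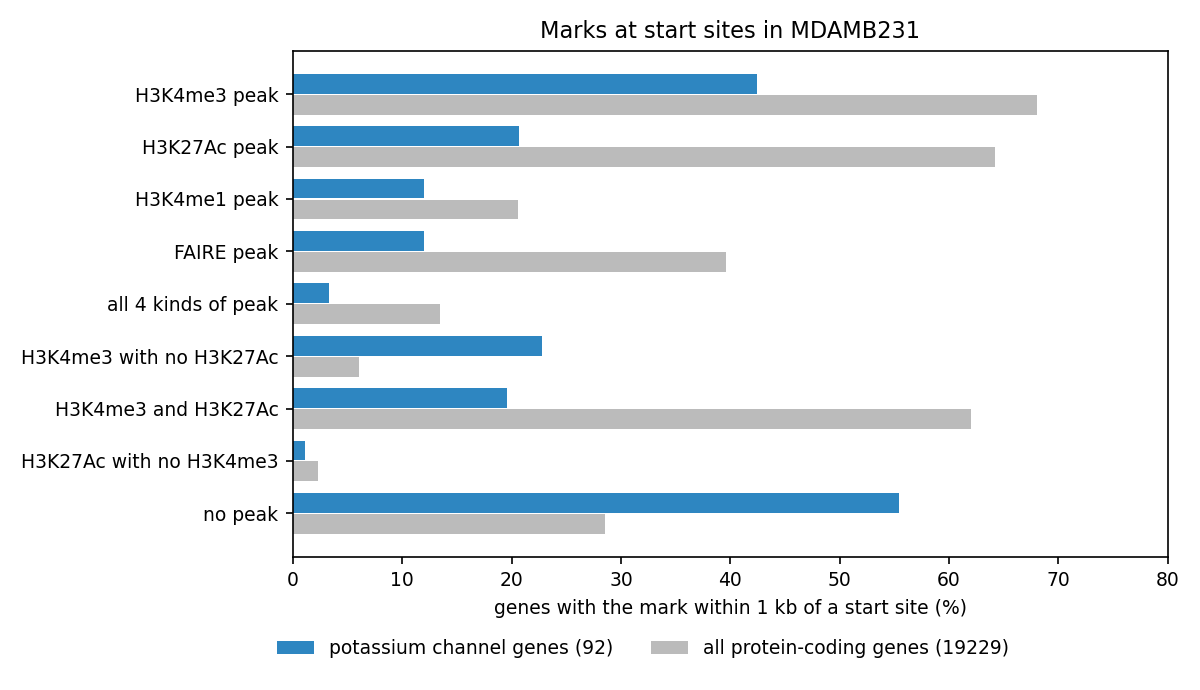
Horizontal bars give the share of genes, in percent, with each kind of peak or combination within 1 kb of a start site, for the 92 channel genes (blue) and all 19229 protein-coding genes (grey). The channel bar is the longer of the pair for H3K4me3 with no H3K27Ac (22.8% against 6.06%) and for no peak (55.4% against 28.5%).

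The combination of H3K4me3 with no H3K27Ac went the other way. It was found at 21 channel genes (22.8%), against 6.06% of all coding genes. Both marks were at start sites of 18 channel genes (19.6%), against 62%, and H3K27Ac with no H3K4me3 was at 1 channel gene (1.09%), against 2.24%. Taken over the 39 channel genes with H3K4me3, 53.8% had no H3K27Ac, whereas the share was 8.91% over the 13081 coding genes with H3K4me3. Channel genes were longer, with a median of 50.4 kb against 27.6 kb, and had a median of 4 start sites against 5.

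Voltage-gated pore subunits were the largest group, with 29 genes. H3K4me3 was at 12 of them and H3K27Ac at 4, among them KCNC4, KCNQ3 and KCNQ5. The other 8 with H3K4me3 included KCNB2, KCNC1, KCND2, KCNH1, KCNH3 and KCNH8, and 17 had no peak of any list. The Shaker genes KCNA1 to KCNA7 and KCNA10 were all among the 17. Of the 10 modifier subunits, which form channels only together with pore subunits, KCNG3 and KCNS3 had both marks, KCNF1 had H3K4me3 alone, and 7 had no peak.

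Auxiliary subunits of voltage-gated channels had H3K4me3 at 7 of 11 genes, H3K27Ac at 5, FAIRE at 4 and H3K4me1 at 3. KCNE1 and KCNIP3 had all 4 kinds. KCNAB2, KCNAB3 and KCNIP2 had both H3K4me3 and H3K27Ac, KCNE3 and KCNIP4 had H3K4me3 with no H3K27Ac, and 4 had no peak. Inward rectifiers had H3K4me3 at 5 of 15 genes. KCNJ11, the pore of the ATP-sensitive channel of beta cells, and KCNJ16 also had H3K27Ac, KCNJ5, KCNJ8 and KCNJ10 did not, KCNJ15, named after its values were seen, had H3K4me1 alone, and 9 had no peak.

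K2P leak channels, which are open at rest, had H3K4me3 at 6 of 15 genes. KCNK1 was the single K2P gene with H3K27Ac, and the 5 with H3K4me3 and no H3K27Ac were KCNK2, KCNK6, KCNK9, KCNK12 and KCNK15. Among the 8 calcium- and sodium-activated pores, KCNN4 had all 4 kinds, KCNT2 had both H3K4me3 and H3K27Ac, KCNN2 had H3K4me3 alone, KCNMA1 had H3K27Ac with no H3K4me3, and 4 had no peak. Of the 4 auxiliary BK subunits, KCNMB3 and KCNMB4 had both marks and KCNMB2 had H3K4me3 alone.

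**Figure D2:**
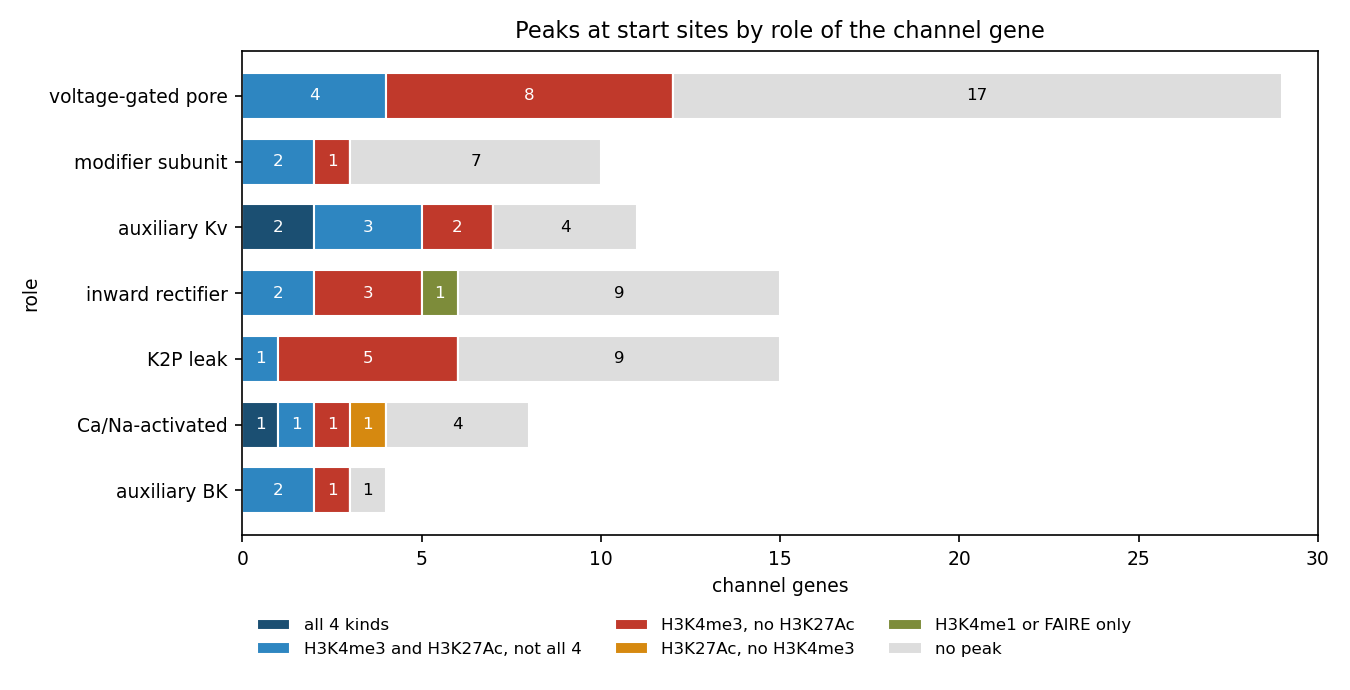
Stacked bars count the 92 channel genes by role and by the peaks within 1 kb of their start sites, with the number of genes written in each part. H3K4me3 with no H3K27Ac (red) was the largest marked class of the voltage-gated pores, with 8 of 29 genes, and of the K2P leak channels, with 5 of 15, and genes with no peak (grey) were 17 of 29 and 9 of 15.

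KCNN4, the intermediate-conductance calcium-activated channel, had the widest H3K27Ac peak at a start site of the channels with all 4 kinds. Its H3K4me3 peak (chr19:44283083-44285911) covered 2829 bp around the gene's 5 prime end with a score of 3100. The score is 10 times the negative log10 of the p that MACS gave a peak against input, is 50 or more in these lists, and is capped near 3100. The H3K27Ac peak over the same start (chr19:44280381-44290172) was 9792 bp wide with a score of 567.5, and the FAIRE peak there (chr19:44284739-44285773) had a height of 59.41. The H3K4me1 peak that completed the set lay elsewhere. It was 13780 bp wide (chr19:44259052-44272831), had a score of 88.97, met start sites of short transcripts at the far end of KCNN4 and also reached a start site of SMG9.

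KCNIP3, a calcium-binding partner of voltage-gated channels that also binds DNA, was marked at 2 of its 6 start sites. At the site within chr2:95982801-95984813 all 4 kinds were present together. The H3K4me3 peak there was weak, with a score of 70.66, the H3K27Ac peak was 6245 bp wide with a score of 3100, the H3K4me1 score was 51.31, close to the limit of 50, and the FAIRE height was 46.46. At the other site the H3K4me3 peak (chr2:96010492-96013620) had a score of 3100 over 3129 bp and the H3K27Ac peak a score of 2478, and a FAIRE peak of height 36.42 was present, without H3K4me1. The printed KCNIP3 stretch belongs to this second site. Among the 92 channels, KCNIP3 alone had all 4 kinds at 1 start site, against 8.75% of all coding genes.

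KCNE1, the small auxiliary subunit that slows the cardiac KCNQ1 channel, had its peaks at different start sites. The H3K4me3 peak (chr21:35831236-35832858) was 1623 bp wide with a score of 551.3 and shared no base with a peak of another list. H3K27Ac (chr21:35827363-35829616, score 441.3), H3K4me1 (score 88.24) and FAIRE (height 50.02) lay together at another start site. A start site of a small nucleolar RNA gene, SNORA11, was also within 1 kb of these peaks. The full set at these 3 genes thus rested on H3K4me1 and FAIRE peaks below the medians of their lists, 114 and 61.1. With a MACS score of at least 100, with FAIRE heights at or above the list median, or with the 5 prime end of each gene alone, the count of channels with all 4 kinds was 0, while the share of all coding genes was 7.64%, 9.44% and 6.22%.

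The remaining 15 channels with both H3K4me3 and H3K27Ac were named after their values were seen. KCNQ5, a pore of slow potassium currents, had the strongest pair, with a score of 3100 for both H3K4me3 (chr6:73330630-73334086) and H3K27Ac (chr6:73330663-73334888). At KCNAB2, H3K4me3 and H3K27Ac lay at 30 of 44 start sites in a pair of regions, and the upstream one (chr1:6050901-6054447) is shared with a start site of NPHP4. The H3K27Ac peak was weak at KCNMB3 (score 50.59), KCNJ11 (65.69) and KCNJ16 (80.11). By the highest H3K4me3 score of each gene, KCNJ16 was also the lowest of the 18 channels with both marks (86.96). Every H3K4me3 and H3K27Ac peak at a start site of KCNAB3 or KCNG3 also lay at a start site of another coding gene, so these marks cannot be assigned to the channel. The downstream region of KCNAB2 (chr1:6084793-6087287) was not shared, with scores of 1205 for H3K4me3 and 1720 for H3K27Ac. None of the 21 channels with H3K4me3 and no H3K27Ac had the start site of another coding gene at its peak.

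At 3 of the 18 channels, KCNE1, KCNQ3 and KCNT2, the marks were at different start sites of the gene. H3K4me3 and H3K27Ac met at 1 start site in 15 channels (16.3%), against 61.5% of all coding genes, and 24 channels (26.1%) had H3K4me3 without H3K27Ac at the same start site, against 6.52%. At KCNT2, a sodium-activated channel, H3K4me3 lay at 6 of 8 start sites (chr1:196576636-196578399, score 714.2), and H3K27Ac lay 142 kb into the gene.

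H3K4me3 peaks of the 21 channels with no H3K27Ac were smaller than those of the 18 with both marks. The widest peak of each gene ran from 1055 to 2874 bp with a median of 1856 bp, against a median of 2753 bp (1027 to 3798 bp). The highest score of each gene had a median of 1007, with 2 of 21 (9.52%) at 3100 or more, against a median of 3100 and 12 of 18 (66.7%). Coding genes showed the same order, with median widths of 1927 bp and 3071 bp in these classes and with 19% and 88.7% at 3100 or more. FAIRE was at 1 of the 21 channels (4.76%), KCND2, and at 9 of the 18 (50%). The same shares over coding genes were 13.6% and 59.4%. H3K4me1 was at 4 of the 21 (19%), against 6.18% of coding genes in that class, and at 27.8% of the 18, against 29.3%. The 4 were KCNH1, KCNIP4, KCNJ5 and KCNK15. All these shares count any start site of a gene. At KCNH1 and KCNJ5 the H3K4me1 peak lay at a different start site from H3K4me3, as did FAIRE at KCNE1, KCNQ3 and KCNQ5.

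The distance from start sites to the nearest H3K27Ac peak was measured for the channels with H3K4me3 and no H3K27Ac. The nearest H3K27Ac peak to any start site of the 21 genes was 1465 to 428381 bp away, with a median of 25403 bp, and it was over 10 kb away for 17. No H3K4me3 peak at a start site of the 21 shared a base with an H3K27Ac peak. KCNJ5 was the nearest to the limit, with an H3K27Ac peak (chr11:128777101-128779614, score 530) 1465 bp from its internal start site. A separate H3K27Ac peak in KCNJ5 (score 1539) lay with H3K4me3 (score 3100) at the start site of an antisense RNA gene. On the other side of the limit, KCNT2, KCNAB3 and KCNMB3 owed H3K27Ac to peaks 619, 731 and 756 bp from a start site, and KCNAB3 and KCNK9 owed H3K4me3 to peaks 821 and 898 bp away.

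**Figure D3:**
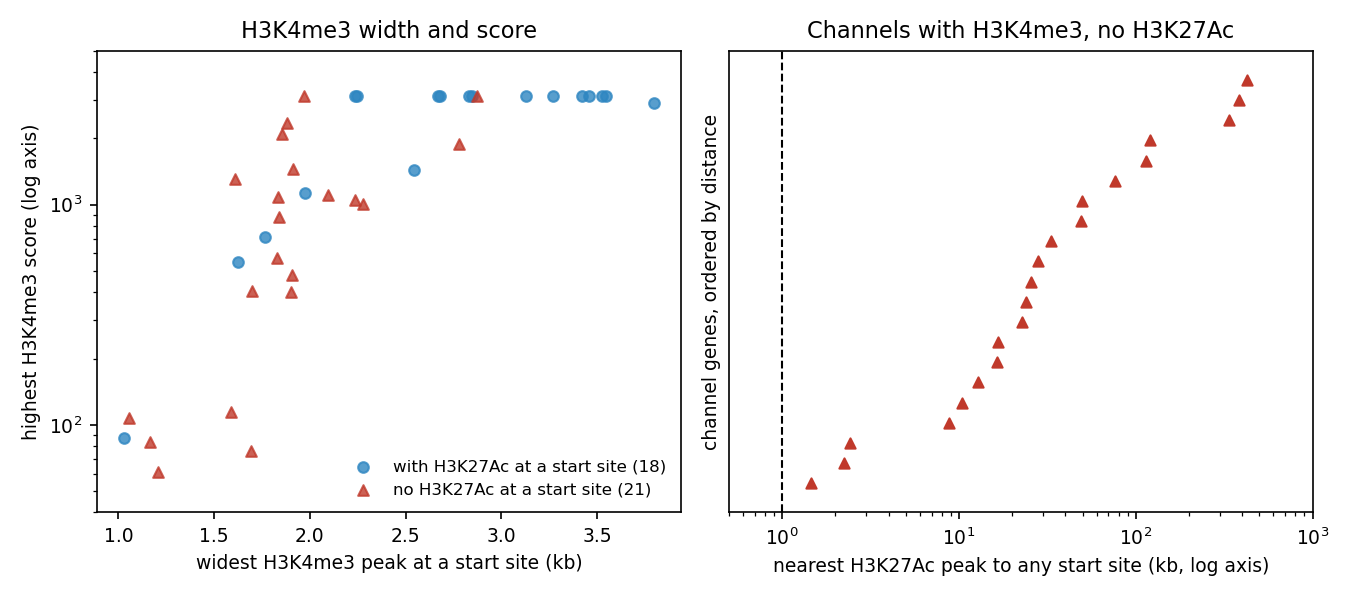
The left panel plots the widest H3K4me3 peak at a start site (kb) against the highest H3K4me3 score (log axis) for 18 channels with H3K27Ac (blue circles) and 21 without it (red triangles). The right panel gives, for the 21, the distance in kb (log axis) from any start site to the nearest H3K27Ac peak, with a dashed line at 1 kb. The triangles sit lower and further left than most circles, and every distance lies to the right of the line, from 1465 bp at KCNJ5 to 428381 bp at KCNB2.

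KCNH3, a voltage-gated channel of the EAG family found mostly in brain, had the widest H3K4me3 peak of the class. The peak was 2874 bp wide with a score of 3100 and covered 2 of its 5 start sites. The single H3K27Ac peak of the widened locus (score 889.4) lay beyond the gene at the start sites of MCRS1 and PRPF40B. KCNN2, a small-conductance calcium-activated channel, had its H3K4me3 peak (chr5:113696093-113698868, 2776 bp, score 1889) well inside the gene at 3 of 9 start sites, and its H3K27Ac peaks, with scores of 68.87 and 139.1, were at least 119809 bp from a start site. KCND2, a pore of fast inactivating neuronal currents, had H3K4me3 at its 5 prime end (chr7:119911996-119914272, 2277 bp, score 1007). It was the single gene of the class with FAIRE at that site, at a height of 48.67. H3K27Ac with a score of 1486, H3K4me1 and FAIRE lay together 311 kb into the KCND2 gene.

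KCNK2, a mechanosensitive leak channel, had H3K4me3 (chr1:215255486-215257577, 2092 bp, score 1108) at 5 of 8 start sites, and 5 H3K27Ac peaks with scores from 61.3 to 456.9 in the locus. All 5 of these shared bases with H3K4me1, and the nearest was 2248 bp from a start site. KCNK15, a relative of the acid-sensitive leak channels, had the other peak at the score cap (chr20:43373818-43375785, 1968 bp, score 3100), together with H3K4me1 (score 84.06), and its nearest H3K27Ac was 12904 bp away.

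KCNH8, also of the EAG family, had H3K4me3 at its 5 prime end (chr3:19188132-19190041, 1910 bp, score 1457), a weaker H3K4me3 peak 228 kb into the gene (score 107.3), and no row of the other lists. KCNK6, another leak channel, had H3K4me3 at both of its start sites (chr19:38809832-38811714, 1883 bp, score 2341), between genes that had acetylated start sites. The H3K27Ac peaks of its locus lay at C19orf33 (score 2319), YIF1B (814.1) and CATSPERG (346.1), and the YIF1B peak was 2409 bp from a KCNK6 start site. KCNB2, a slowly inactivating voltage-gated pore, had an H3K4me3 peak of 1909 bp with a score of 479 and no other row in its locus, and its nearest H3K27Ac was 428381 bp away. KCNK9, an acid-sensitive leak channel, had an H3K4me3 peak of 1899 bp with a score of 399, and its nearest H3K27Ac was 384721 bp away.

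The other 11 genes of the class had H3K4me3 scores from 61.01 to 2091. KCNJ10 (2091), KCNJ8 (1314) and KCNJ5 (1082), inward rectifiers of glia, vessels and heart, were above 1000. KCNK12 (881.4) and KCNH1 (575) were intermediate, and KCNE3 (114.6), KCNF1 (107.1), KCNIP4 (83.76), KCNC1 (76.28) and KCNMB2 (61.01) were low. KCNC1, KCNIP4 and KCNMB2 fell below a MACS score of 100, the other 18 remained in the class at that limit, and KCNJ11 and KCNMB3 entered it. With the 5 prime end of each gene alone, 17 remained, since KCNIP4, KCNK2, KCNMB2 and KCNN2 had no H3K4me3 there, and KCNQ3 and KCNT2 entered.

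KCNMA1, the pore of the BK channel, stood apart. It had H3K27Ac at 6 of its 57 start sites and no H3K4me3 within 286530 bp of any of them. The strongest H3K27Ac peak at an annotated start site (chr10:79107611-79112185) was 4575 bp wide with a score of 1859, and H3K4me1 (score 709.5) and FAIRE (height 159.6) lay on it. That start site is internal, and the centre of the peak is 288 kb downstream of the gene's 5 prime end. A start site of a non-coding gene, KCNMA1-AS3, also lay at the H3K27Ac, H3K4me1 and FAIRE peaks there. The widened KCNMA1 locus of 809 kb held 17 H3K27Ac, 16 H3K4me1, 22 FAIRE and 0 H3K4me3 peaks. H3K27Ac reached a score of 3100 at 3 places in the gene body, the widest of which (chr10:78915560-78926523) was 10964 bp wide. Of the 15 H3K4me1 peaks away from coding start sites, 11 shared bases with both H3K27Ac and FAIRE.

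**Figure D4:**
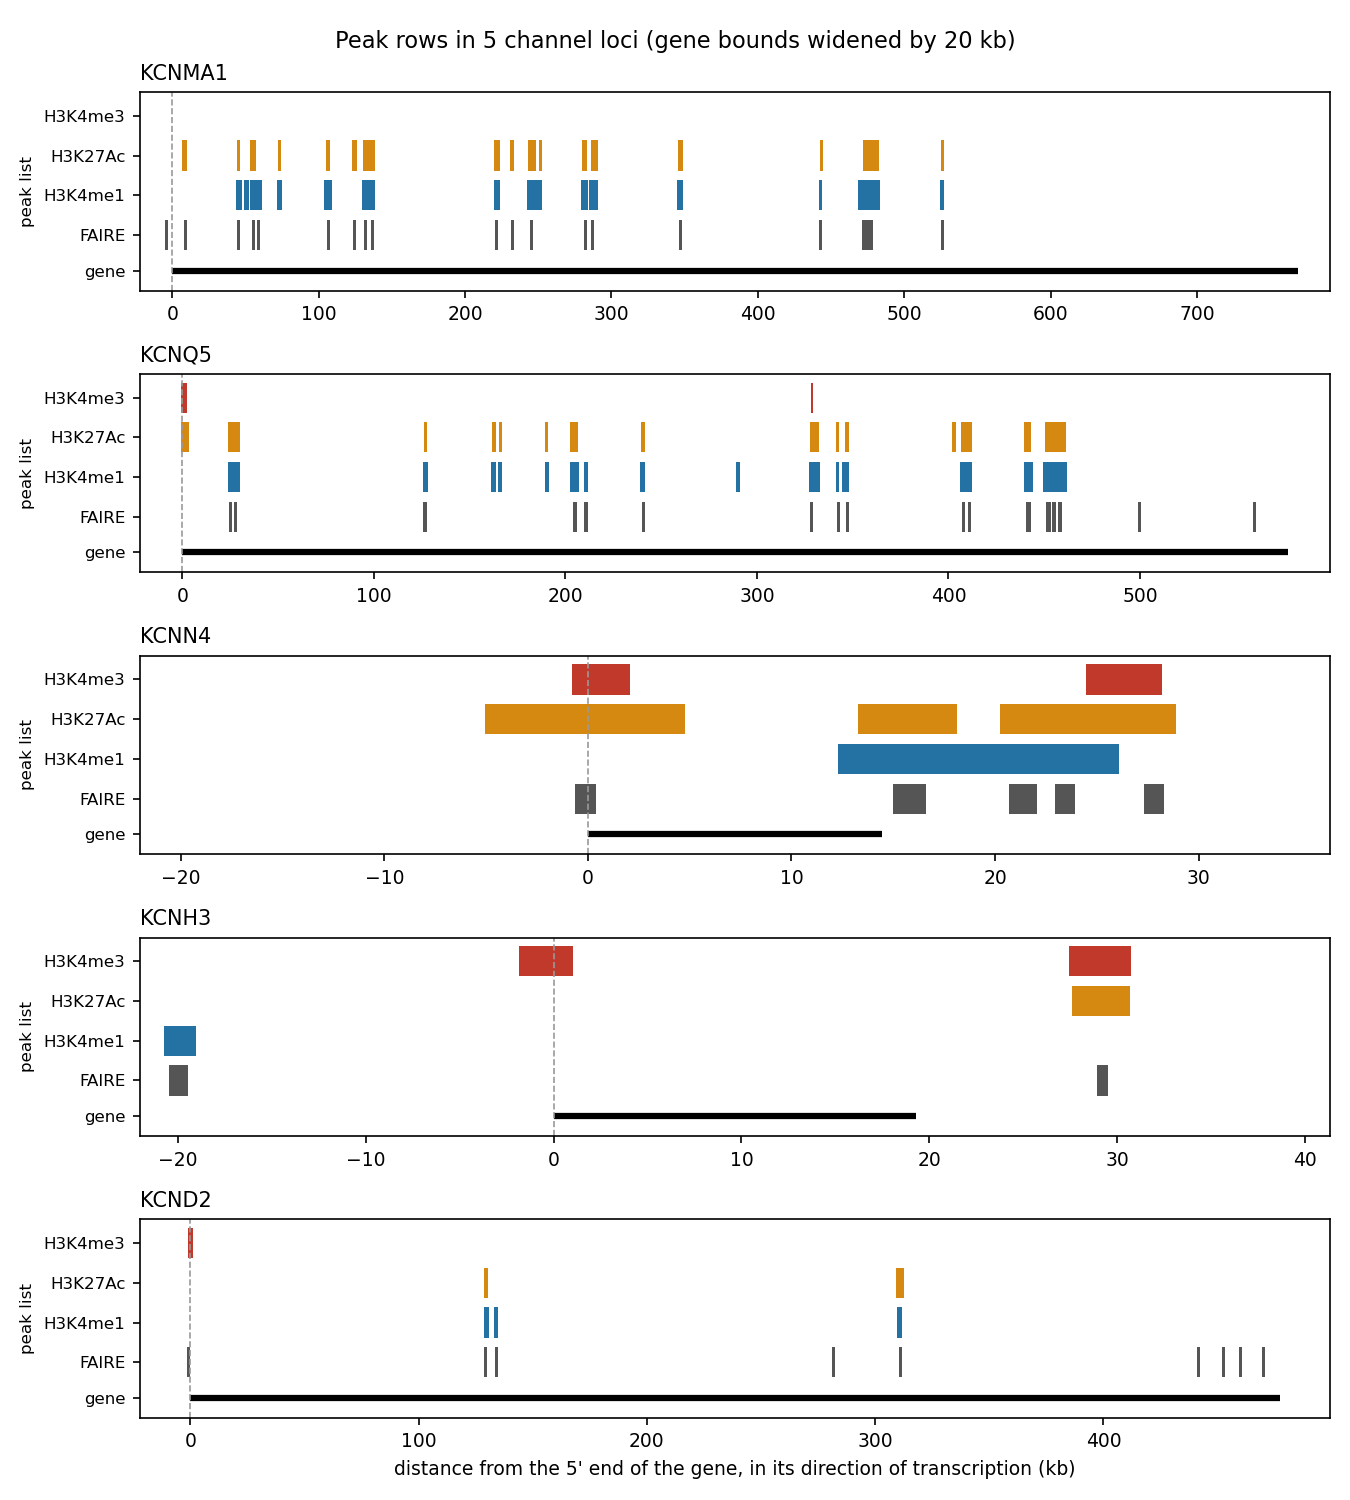
Peaks of the 4 lists in 5 channel loci, plotted by distance in kb from the 5 prime end of the gene in its direction of transcription, with a black bar for the gene and a dashed line at the 5 prime end. Boxes show peak width, except that narrow peaks are drawn wider so as to be seen. KCNMA1 and KCNQ5 hold 55 peaks each, KCNN4 11, KCNH3 6 and KCND2 15, and the H3K4me3 track of KCNMA1 is empty.

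Within the gene bounds widened by 20 kb, the channel loci covered 16.7 Mb. They held 97 H3K4me3 peaks, 199 H3K27Ac peaks, 151 H3K4me1 peaks and 256 FAIRE peaks. Per Mb these were 5.81, 11.9, 9.04 and 15.3, and over the loci of all coding genes they were 9.73, 17.8, 11.7 and 20.5. Away from start sites of coding genes the densities were 1.08 against 1.85 for H3K4me3, 8.26 against 9.48 for H3K27Ac, 8.14 against 8.69 for H3K4me1 and 12.6 against 15 for FAIRE. Counted locus by locus, so that a peak in overlapping loci counts in each, 76.8% of the H3K4me1 peaks were in the body of the channel gene and 7.28% at its own start site, whereas 44.9% of 98 H3K4me3 peaks were at the channel's own start site and 36.7% at that of another coding gene.

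Few loci held many of the peaks, and those named here were picked after their counts were seen. KCNMA1 and KCNQ5 had 55 peaks each, KCNIP4 54, KCNAB1 34 and KCNS3 26, together 31.8% of the 705 peaks counted locus by locus. These widened loci are long, from 524 kb at KCNS3 to 1260 kb at KCNIP4. Their densities ran from 42.9 peaks per Mb at KCNIP4 to 89.1 at KCNQ5. Some short loci were denser, such as KCNK4 with 287 per Mb over 48.7 kb. KCNIP4, a partner of voltage-gated channels whose gene spans 1220 kb, had H3K4me3 with no H3K27Ac at its start sites and yet 13 H3K27Ac peaks in its body, the strongest with a score of 3100. Over all channel loci, 136 H3K4me1 peaks lay away from coding start sites. H3K27Ac shared bases with 76.5% of them and both H3K27Ac and FAIRE with 61.8%, against 71.3% and 58.8% in the loci of all coding genes. Neither was found at 10.3%, against 16.1%.

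A set of 9 channels (9.78%) had no peak at a start site but at least 3 H3K27Ac peaks in the widened locus. The share of all coding genes with this pattern was not counted, so whether it is more frequent among channels is not known. In KCNAB1 (10 peaks), KCNH5 (4), KCNH7 (5), KCNJ6 (6) and KCNQ1 (5) most of these lay in the body of the channel gene. KCNJ6, KCNH7 and KCNQ1 had all of theirs there, with highest scores of 1037, 2166 and 3100. The strongest peak of the KCNH5 locus (score 3100, chr14:63156867-63163160) lay beyond the end of the gene. KCNQ1, which pairs with KCNE1 in heart, held its own strongest H3K27Ac peak at 89.2 kb from its 5 prime end, together with peaks of the other 3 lists. A further H3K27Ac peak in KCNQ1 (score 1583) lay with H3K4me3 (score 3100) at the start site of KCNQ1OT1, the imprinted antisense RNA of that gene. In KCNH4 (4 peaks) and KCNK4 (6), by contrast, all H3K27Ac peaks were at start sites of other coding genes. KCNN1 (5) and KCNJ14 (3) had them at such start sites and in the flanks.

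At the other end, 20 channel loci (21.7%) held no peak of any list, against 12.1% of the loci of all coding genes. They included KCNA1 to KCNA6 and KCNA10 of the Shaker pores, the modifiers KCNS2, KCNV1 and KCNV2, the inward rectifier KCNJ12, the leak channels KCNK5, KCNK10, KCNK16 and KCNK17, the activated pores KCNN3, KCNT1 and KCNU1, and KCNMB1. These names were taken after the values were seen. KCNJ12 has a near-identical copy that the annotation used here does not place on chromosomes 1 to 22, and reads that map to both copies may have been lost to the mapping quality filter, which was not tested.

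The sequence around the 5 prime end of each gene (1 kb on each side, 2001 bases) was compared by class of marking. CpG observed over expected is the count of CpG dinucleotides over that given by the C and G content. Its median was 0.6 over the channels and 0.616 over all coding genes, and 50% and 52.5% had a ratio of at least 0.6. The 21 channels with H3K4me3 and no H3K27Ac had a median of 0.687, and 14 of them (66.7%) had at least 0.6. The 18 with both marks had a median of 0.573, with 9 at 0.6 or more, whereas coding genes with both marks had a median of 0.686. For KCNN4, KCNIP3 and KCNE1 the ratio was 0.222, 0.208 and 0.25, and the printed KCNIP3 stretch, from an internal start site, was far richer in CpG than the gene's 5 prime end. Channels without a peak had a median of 0.551, and coding genes without a peak 0.275.

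When genes were divided by CpG content, the contrast kept its direction and was larger at a ratio of at least 0.6 than under it. Of the 46 channels with a ratio of at least 0.6, 23 (50%) had H3K4me3, against 89.3% of such coding genes, 10 (21.7%) had H3K27Ac, against 83.3%, and 22 (47.8%) had no peak, against 9.98%. H3K4me3 with no H3K27Ac was at 14 of them (30.4%), against 6.45%, and H3K4me1 at 4 (8.7%), against 24%. Of the 46 channels under 0.6, H3K4me3 was at 34.8%, against 44.6%, H3K27Ac at 19.6%, against 43.1%, and H3K4me1 at 15.2%, against 16.8%. No peak was found at 63% of them, against 49%, and H3K4me3 with no H3K27Ac at 15.2%, against 5.62%.

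**Figure D5:**
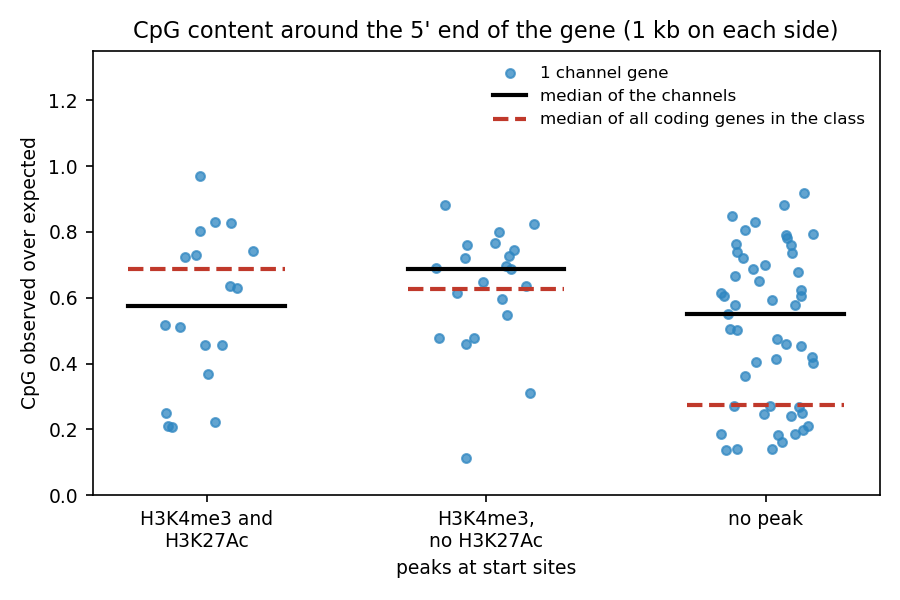
CpG observed over expected within 1 kb of the gene's 5 prime end, for channels with both H3K4me3 and H3K27Ac, with H3K4me3 and no H3K27Ac, and with no peak. Each point is 1 channel gene with random sideways spread, black lines are medians of the channels (0.573, 0.687 and 0.551), and red dashed lines are medians of all coding genes of the same class (0.686, 0.628 and 0.275).

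Motifs were searched on both strands of the same windows. The AP-1 letters TGANTCA were in 25 of 92 channel windows (27.2%), against 33.7% of coding windows, and the TEAD letters GGAATG were in 61 (66.3%), against 62.6%. The RE1 element, bound by the neuronal repressor REST, was matched in 2 channel windows (2.17%), those of KCNK12 and KCNH4, against 0.666%. KCNK12 had H3K4me3 with no H3K27Ac and KCNH4 had no peak. In the middle 301 bases of FAIRE peaks, AP-1 letters were in 39.5% of the 256 peaks of the channel loci, against 39.3% of all FAIRE peaks. Away from coding start sites the shares were 44.8% and 43.9%, and at coding start sites 15.2% and 20.2%. Single loci varied, with 12 of 22 FAIRE peaks at KCNMA1, 8 of 21 at KCNQ5, 8 of 20 at KCNIP4 and 9 of 12 at KCNH7. A match is a description of letters and not of binding.

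Other genes that handle potassium were marked more often than the channels. Of 34 such genes, which include the sodium pump, cotransporters, cyclic nucleotide-gated channels and auxiliary proteins, 18 (52.9%) had H3K4me3, 14 (41.2%) H3K27Ac and 4 (11.8%) all 4 kinds. Among the 4 were ATP1B1, a subunit of the sodium pump, and TPCN1, a channel of endosomes. H3K4me3 with no H3K27Ac was at 5 of the 34 (14.7%), ABCC9, HCN4, LRRC26 and SLC12A5 among them. Of 39 sodium and calcium channel genes, 17 (43.6%) had H3K4me3, 13 (33.3%) had H3K27Ac and 6 (15.4%) had H3K4me3 with no H3K27Ac. The difference between these lists and the potassium channels was not tested.

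Marker genes were examined as a check of the cell line. VIM, CD44, CAV1, AXL and ZEB1, markers of mesenchymal-like breast cancer cells, each had all 4 kinds of peak. Of the luminal and epithelial markers, ESR1 and PGR had H3K4me3 with no H3K27Ac, GATA3 had both, CDH1 had H3K27Ac and FAIRE without H3K4me3, and EPCAM had all 4 kinds, so that this list was not free of marks. Of the neuronal genes SNAP25 had 3 kinds of peak and SYT1 all 4, whereas RBFOX3, the leukocyte genes PTPRC and CD3E and the muscle genes MYOD1 and ACTA1 had none.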

How the data were processed

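Peak lists of MDAMB231 cells were analysed as the authors deposited them. According to the study's methods, ChIP and FAIRE reads were aligned to GRCh37/hg19 with BWA, filtered on mapping quality with Samtools and cleared of duplicates. The submitters' processing notes also name TopHat and HOMER, with no role given. ChIP peaks were called by MACS against input, and the deposited value is a score, 10 times the negative log10 of the p, with a lowest value of 50. FAIRE peaks were called by FindPeaks, and the deposited value is the height of the coverage signal, which the sources used here do not describe as scaled to depth. Such steps bear on the counts: combined samples hide disagreement between them, and start sites in repeats may lose reads to the mapping filter.

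GENCODE v44lift37 gave genes and start sites. Peak starts were read as counted from 0, at least 1 shared base was required, and 5 FAIRE peaks listed again were counted once. Counting was done with python 3.11.15 and numpy 2.4.6, sequences were read with pysam 0.24.0, plots were drawn with matplotlib 3.10.9, and the overlap code was checked against bedtools on simulated intervals. Motifs were matched as letters on both strands. No test was run, since each of the 4 lists is 1 pooled list. Genes described peak by peak were those with all 4 kinds, and the 10 with the widest H3K4me3 among those without H3K27Ac. Named besides these were every channel with 1 of these marks and not the other, and unmarked channels with at least 3 H3K27Ac peaks in the locus. Sequence was printed for leading genes of each class in that order. Some genes and a sequence that these rules pick are not reported here. The members and lists were chosen with earlier results of these data known. Alternatives changed the start sites, the window, the overlap, the peak threshold and the locus bounds.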

Additional observations from a re-analysis of the deposited data

How the results depend on the processing

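The count of channels with H3K4me3 and no H3K27Ac, 21 as reported, stayed between 19 and 24 under every alternative tried, and the share of coding genes between 5.58% and 8.89% under those for which it was counted. The count with no peak ran from 48 to 61, against 27.1% to 41% of coding genes. The count with H3K4me3 ran from 31 to 41, against 54.3% to 68.7%. Both contrasts were smaller when start sites within 1 kb of another coding start were left out. H3K4me3 was then at 37 channels in place of 39, against 54.3% of coding genes in place of 68%. No peak was then found at 53 channels in place of 51, against 41% in place of 28.5%. No paired analysis was possible because a list of pooled samples has no sample columns.

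With the 5 prime end of the gene alone, H3K27Ac was at 12 channels in place of 19, H3K4me1 at 1 and FAIRE at 3 in place of 11 each, and all 4 kinds at 0 in place of 3. The shares of all coding genes were then 58.2%, 12.2%, 30.7% and 6.22%. With the centre of the peak inside the window, H3K4me1 was at 7, against 8.87% of coding genes. With a MACS score of at least 100, H3K4me1 was at 3, against 11.5%, and all 4 kinds at 0, against 7.64%. With FAIRE heights at or above the median, FAIRE was at 5, against 25%, and all 4 kinds at 0, against 9.44%. All 4 kinds at 1 start site were found in 1 channel, against 8.75% of coding genes.

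The 97 H3K4me3 peaks of the loci became 58 without widening, 147 with 50 kb, and 58 without those at other coding start sites. The stricter threshold left 89 of 151 H3K4me1 peaks and 126 of 256 FAIRE peaks. The alternatives with all marks at 1 start site, with H3K27Ac under the H3K4me3 peak or at the same start site (24 channels), and with the canonical start site (61 without a peak) were chosen after seeing the data. Causes were not tested, and read depth, which limits weak peaks, is not held in the values used here.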
